A study of Cordyceps militaris with 6 samples.

Results

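The comparison described here sets passage 6 of the YCC strain of Cordyceps militaris against passage 1, the ends of a series of 6 successive subcultures. C. militaris is an ascomycete that infects insects and is cultivated for its fruiting bodies and for cordycepin, an adenosine analogue. The comparison covers 2 of the 6 libraries, 1 per passage, and 8483 of the 10385 genes in the expression table, those with a mean of at least 1 FPKM (fragments per kilobase of transcript, scaled to library size) over the 6 libraries. Both libraries were made from mycelium grown for 72 h in the dark in shaken liquid medium, so they differ by label in passage number alone. No genotype was changed and no agent was added in either. The series asks how the transcriptome of a strain diverges as it is subcultured, and passages 2 to 5 are given below only to place the pair.

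Repeated subculture of filamentous fungi often ends in degeneration, in which a strain still grows as mycelium but forms fewer or abnormal fruiting bodies and spores. Hyphae of ascomycetes can carry more than one kind of haploid nucleus in a common cytoplasm, and cultures can also hold a mixture of hyphae. RNA from such a culture can therefore carry more than one allele of a gene although each nucleus has a single copy. The hyphal wall is a layered fabric of chitin, glucans and mannoproteins that chitin synthases, chitinases and glucanases remodel as the tip advances.

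Expected counts summed to 9740171 in passage 1 and 13609435 in passage 6, and the other 4 libraries lay between 10930180 and 13813999. Ratios are given as log2 of passage 6 over passage 1, from CPM (counts scaled to library size, here with TMM factors that align the bulk of genes between libraries), with the 95% interval that counting error alone gives. With 1 library a passage there is no replicate spread, so no difference could be tested and nothing separates the passage from its library. The passage of each library was taken from its label. Read allele shares in 3 parts of the genome, given with the variant sites, did not follow the order of passages, and the files hold no independent check of the labels. FPKM are printed as deposited and are not TMM-scaled. On that scale, the median gene of passage 6 lay 0.25 log2 above passage 1, against 0.04 log2 after TMM scaling. None of 7 housekeeping genes compared was 2-fold apart. Such genes are not specific to mycelium, so this does not check the labelled tissue. Actin (CCM_03787), the filament protein of the hyphal tip, had 1742 FPKM in passage 1 and 1287 FPKM in passage 6. Of 8 genes of conidiation, the formation of asexual spores, 1 (12.5%) was at least 2-fold higher and 3 (37.5%) lower in passage 6. Of all genes compared, 12.0% were higher and 11.0% lower. The higher conidiation gene (CCM_05902) had 0 and 5 counts, too few to read a direction from. Of 6 hydrophobin genes, also set as spore markers, 1 (16.7%) was higher and 1 (16.7%) lower, with a median of 0.47 log2. With the trend of the ratio with gene length, described below, removed, 0 were higher and 2 lower (median -0.07). The 2 marker lists therefore did not lean the same way before that removal.

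A difference of at least 2-fold between the ends of the series was seen at 1947 of 8483 genes (23.0%). Passage 6 had the higher level at 1015 of them (12.0% of the genes compared) and the lower level at 932 (11.0%). A 4-fold limit kept 167 and 115 genes in these directions, and an 8-fold limit kept 31 and 26. How the genes divided into higher and lower varied with the scaling: 52.1% of the genes 2-fold apart were higher with TMM-scaled counts and 72.4% with FPKM as deposited. Counting error limited the higher genes more: 412 of them and 630 of the lower genes had an interval wholly beyond 2-fold. The authors' deposited table lists 2188 genes, 1602 higher and 586 lower in passage 6.

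The ratio moved with gene length. Among the 2828 shortest genes, up to 1.044 kb, the median log2 ratio was 0.46, with 655 genes at least 2-fold higher and 130 lower. The 2827 genes of middle length had a median of 0.06, with 271 higher and 251 lower. Among the 2828 longest, from 1.716 kb, the median was -0.37, with 89 higher and 551 lower. Short genes were thus mostly above, and long genes mostly below, their passage 1 level. The part of gene length in the differences given below was not tested gene by gene. Each list's counts with a smooth length trend removed stand beside it, and single genes that lose the 2-fold difference without the trend are named as such.

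**Figure D1:**
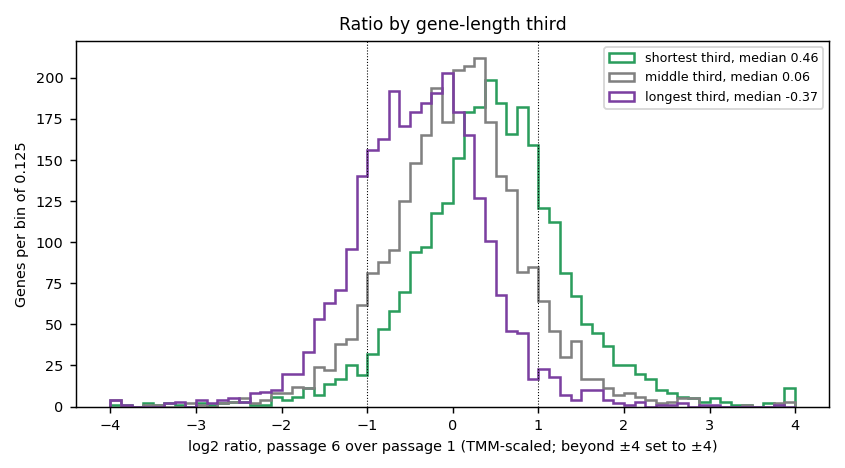
Histograms of the log2 ratio of passage 6 over passage 1 (x axis) for the shortest, middle and longest of 8483 genes in 3 equal groups, with genes per bin on the y axis and dotted lines at 2-fold. The curve of the shortest genes (median 0.46) sits to the right of that of the longest genes (median -0.37).

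The highest ratios among genes with a product name and at least 10 FPKM in either passage included those of several proteases. Metalloprotease 1 (CCM_07917), a protein-degrading enzyme, had 0.37, 2.95, 7.72, 5.65, 14.3 and 14.2 FPKM in passages 1 to 6. Its log2 ratio was 4.85 (interval 3.79 to 6.66), from 5 counts in passage 1 to 270 in passage 6. It was lowest in passage 1 and at nearly one level in passages 5 and 6. The trypsin-like serine protease CCM_03489 had 12.99, 146.5, 254.0, 561.0, 1006 and 245.7 FPKM, a ratio of 3.99 (interval 3.70 to 4.31). Passage 6 was far above passage 1 for this protease but below passages 3, 4 and 5. The subtilisin-related TCONS_00010916, a gene outside the reference annotation, had 1.11 FPKM in passage 1 and between 18.2 and 28.0 FPKM in the other passages (3.75, interval 3.20 to 4.45). The aspartic protease precursor endothiapepsin (CCM_07343) had 3.56, 7.13, 10.6, 11.4, 24.1 and 31.2 FPKM (2.87, interval 2.44 to 3.37), each passage above the one before.

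Of 90 genes for secreted and other peptidases, 20 were at least 2-fold higher in passage 6 and 7 were lower (22 and 4 without the length trend). Their median was 0.21 log2, the same with the length trend removed, against 0.04 over all genes compared. The shares were 22.2% higher, against 12.0% of all genes, and 7.78% lower, against 11.0%. Summed over the list, levels were 5363 FPKM in passage 1 and 5246 FPKM in passage 6. The count of higher genes and the summed level therefore did not point the same way.

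Glucose oxidase (CCM_02694), which oxidises glucose and releases hydrogen peroxide, was detected at more than trace level only in passage 6. It had 0.32, 0.46, 0, 0.08, 0.17 and 12.9 FPKM in passages 1 to 6, or 3 counts in passage 1 and 167 in passage 6 (4.79, interval 3.50 to 7.37). Among 86 genes of glucose and alcohol oxidases and dehydrogenases, 21 were higher (24.4%, against 12.0% of all genes) and 5 lower, with a median of 0.34. Without the length trend 14 were higher and 3 lower, with a median of 0.38. The FAD-binding monooxygenase CCM_02519, of a family that hydroxylates aromatic rings, had 3.06 to 5.61 FPKM in passages 1 to 5 and 18.7 FPKM in passage 6 (2.36, interval 1.93 to 2.85). A short-chain dehydrogenase (CCM_08014) went the other way, with 44.9, 1.27, 32.1, 8.57, 1.33 and 8.41 FPKM (-2.65, interval -3.01 to -2.32).

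Among 71 antioxidant enzymes, 19 (26.8%, against 12.0% of all genes) were at least 2-fold higher and 0 (against 11.0%) lower, with a median of 0.41 log2. With the length trend removed, 8 were higher and 6 lower, and the median was 0.14. The genes of this list are short, with a median length of 0.756 kb. A glutathione S-transferase (CCM_09200), which couples glutathione to reactive compounds, had 34.1, 77.7, 34.6, 24.0, 22.1 and 308.7 FPKM (2.93, interval 2.73 to 3.15). It was high in passage 6 alone. Another glutathione S-transferase (CCM_03461) had 1.98, 10.1, 13.5, 30.4, 21.8 and 35.4 FPKM (3.87, interval 3.30 to 4.60). The disulfide-reducing thioredoxin I (CCM_07812) had 11.5 FPKM in passage 1 and 49.0 to 66.2 FPKM in passages 2 to 6 (2.20, interval 1.77 to 2.70). CipC (CCM_08684), named after a concanamycin-induced protein of Aspergillus, had 4.39, 14.1, 7.66, 42.4, 22.5 and 89.2 FPKM (4.06, interval 3.52 to 4.75).

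Of the 46 cytochromes P450, haem enzymes that oxidise small molecules, 10 (21.7%) were higher and 7 (15.2%) lower, against 12.0% and 11.0% of all genes. Without the length trend 11 were higher and 7 lower. CCM_04719 had 29.4, 30.9, 5.66, 11.9, 13.98 and 115.9 FPKM (1.74, interval 1.59 to 1.89), and CCM_02839 had 11.9, 17.4, 4.07, 16.7, 9.97 and 53.7 FPKM (1.92, interval 1.69 to 2.18). Both were highest in passage 6 and lowest in passage 3. The fused P450 and reductase CCM_02979 had 76.9, 8.32, 9.23, 28.0, 10.9 and 18.3 FPKM (-2.31, interval -2.43 to -2.20).

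**Figure D2:**
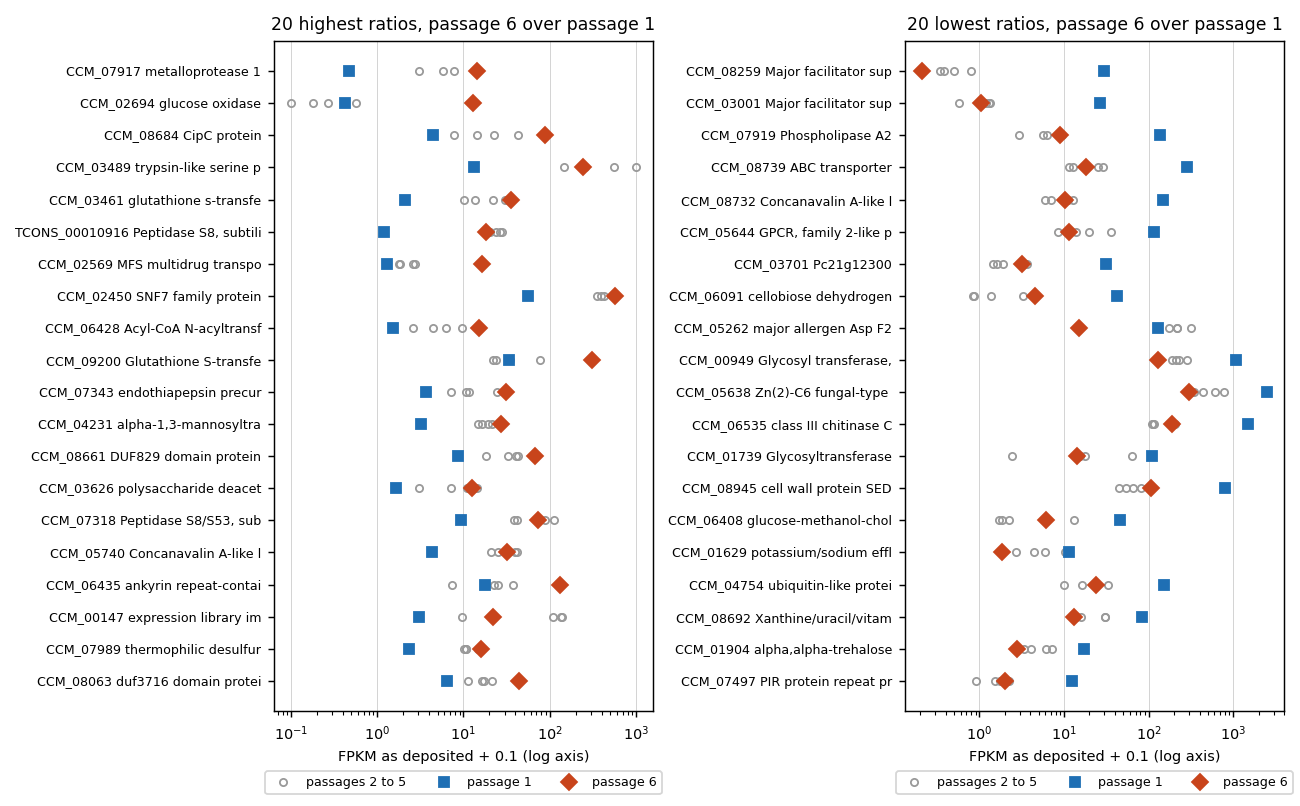
FPKM as deposited plus 0.1 (x axis, log scale) of the 20 highest and 20 lowest named genes by their ratio of passage 6 over passage 1, with passage 1 as squares, passage 6 as diamonds and passages 2 to 5 as open circles. Glucose oxidase, with 12.9 FPKM in passage 6 and at most 0.46 elsewhere, and the Asp F2-like allergen, with 15.1 FPKM in passage 6 and at least 129.3 elsewhere, stand apart from passages 2 to 5.

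The lowest ratios by the same rule included those of transporters, wall proteins and glucan or chitin enzymes. The major facilitator transporter CCM_08259, of a family that moves small molecules across membranes, had 29.4, 0.69, 0.40, 0.28, 0.24 and 0.11 FPKM. Its counts were 390 in passage 1 and 2 in passage 6, which puts it at -7.69 on the log2 scale (interval -11.38 to -6.47). Another transporter of the family, CCM_03001, had 26.6 FPKM in passage 1 and 0.48 to 1.22 FPKM afterwards (-5.0, interval -5.74 to -4.46). Both were low in every passage after the first. Over 191 major facilitator and sugar transporters, 22 (11.5%) were higher and 29 (15.2%) lower, against 12.0% and 11.0% of all genes. The balance turned without the length trend, to 28 higher and 21 lower, and with FPKM as deposited, to 23 and 13. The multidrug transporter CCM_02569 had 1.18 to 2.65 FPKM in passages 1 to 5 and 16.4 FPKM in passage 6 (3.50, interval 2.85 to 4.35).

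Among 50 ABC transporters, pumps driven by ATP, 17 (34.0%) were at least 2-fold lower and 4 higher, with a median of -0.70 log2. The median length of the ABC genes was 4.271 kb. After removal of the length trend 7 were lower and 8 higher, with a median of -0.06. CCM_08739 had 281.3, 12.6, 25.4, 28.8, 11.3 and 18.2 FPKM (-4.19, interval -4.28 to -4.10), and -3.48 without the trend. The multidrug pump Mdr1 (CCM_02386) had 65.1, 12.9, 18.5, 25.9, 16.3 and 19.6 FPKM (-1.98, interval -2.08 to -1.88). Of 75 transporters of amino acids, peptides and ions, 17 (22.7%, against 11.0% of all genes) were lower and 4 (5.33%, against 12.0%) higher. Without the trend 12 were lower and 5 higher. The phosphate transporter CCM_01559 had 74.2, 25.2, 25.5, 35.4, 19.4 and 13.95 FPKM (-2.65, interval -2.83 to -2.48). The ammonium transporter MEP2 (CCM_09076) had 56.1, 49.4, 41.7, 42.5, 35.7 and 18.4 FPKM (-1.85, interval -2.03 to -1.68), lowest in passage 6.

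Of 31 genes of chitin synthesis, breakdown and binding, 10 (32.3%, against 11.0% of all genes) were at least 2-fold lower and 2 (6.45%, against 12.0%) higher, with a median of -0.52 log2. With the length trend removed, 5 were lower and 3 higher, with a median of -0.31. The class III chitinase ChiA1 (CCM_06535), a chitin-cleaving enzyme, had 1493, 203.1, 111.8, 109.1, 116.0 and 190.4 FPKM (-3.21, interval -3.25 to -3.18). The chitin synthases CCM_02966 and CCM_02965, which are neighbours in locus number, had 294.1 and 156.3 FPKM in passage 1 and 90.0 and 51.2 FPKM in passage 6 (-1.95 and -1.85). Chitinase 1 (CCM_07471) had 2.83 FPKM in passage 1 and 10.1 to 15.3 FPKM later (1.76, interval 1.28 to 2.30).

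Of 80 genes for cell wall proteins and glucan enzymes, 21 (26.2%) were lower and 12 (15.0%) higher, with a median of -0.39. All genes gave 11.0% and 12.0%. Without the length trend 18 of the list were lower and 9 higher. The wall protein SED1 (CCM_08945), a structural mannoprotein in yeast, had 790.3, 53.7, 44.1, 80.9, 65.5 and 105.8 FPKM (-3.14, interval -3.20 to -3.09). The GPI-anchored glucanase CCM_03032, which cleaves glucans, had 120.6, 15.8, 8.82, 19.5, 8.09 and 23.0 FPKM (-2.63, interval -2.74 to -2.53). The lectin/glucanase-like CCM_05740 was the reverse, with 4.20 FPKM in passage 1 and 20.8 to 41.8 FPKM in the other passages (2.67, interval 2.31 to 3.09). Protein kinase C (CCM_00005), the kinase of the fungal wall integrity pathway, had 157.5, 34.6, 40.4, 42.7, 33.2 and 34.0 FPKM (-2.45, interval -2.54 to -2.38). SRF-type factor RlmA (CCM_07679), known in Aspergillus as a wall stress regulator, had 45.1, 22.3, 15.0, 16.9, 15.98 and 17.8 FPKM (-1.59, interval -1.73 to -1.45).

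Zinc cluster proteins are DNA-binding regulators found mainly in fungi. Of 168 such genes, 25 (14.9%, against 11.0% of all genes) were at least 2-fold lower and 3 (1.79%, against 12.0%) higher. Without the length trend 17 were lower and 6 higher. The gene with the greatest loss of reads in the comparison belongs to this family by its product name. CCM_05638 had 2516, 769.4, 602.7, 343.9, 442.2 and 301.8 FPKM, a ratio of -3.30 (interval -3.33 to -3.27). CCM_04085 of the same family had 44.8 to 67.9 FPKM in passages 1 to 5 and 16.2 FPKM in passage 6 (-1.92, interval -2.10 to -1.75). Of 197 other transcription factors, 40 (20.3%) were lower and 10 (5.08%) higher, and 30 and 7 without the trend. Among 31 genes of G protein and cyclic AMP signalling, 8 (25.8%) were lower and 3 (9.68%) higher (7 and 3 without the trend). The receptor-like CCM_05644 had 116.4, 35.5, 19.5, 13.7, 8.30 and 11.3 FPKM (-3.60, interval -3.81 to -3.41).

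**Figure D3:**
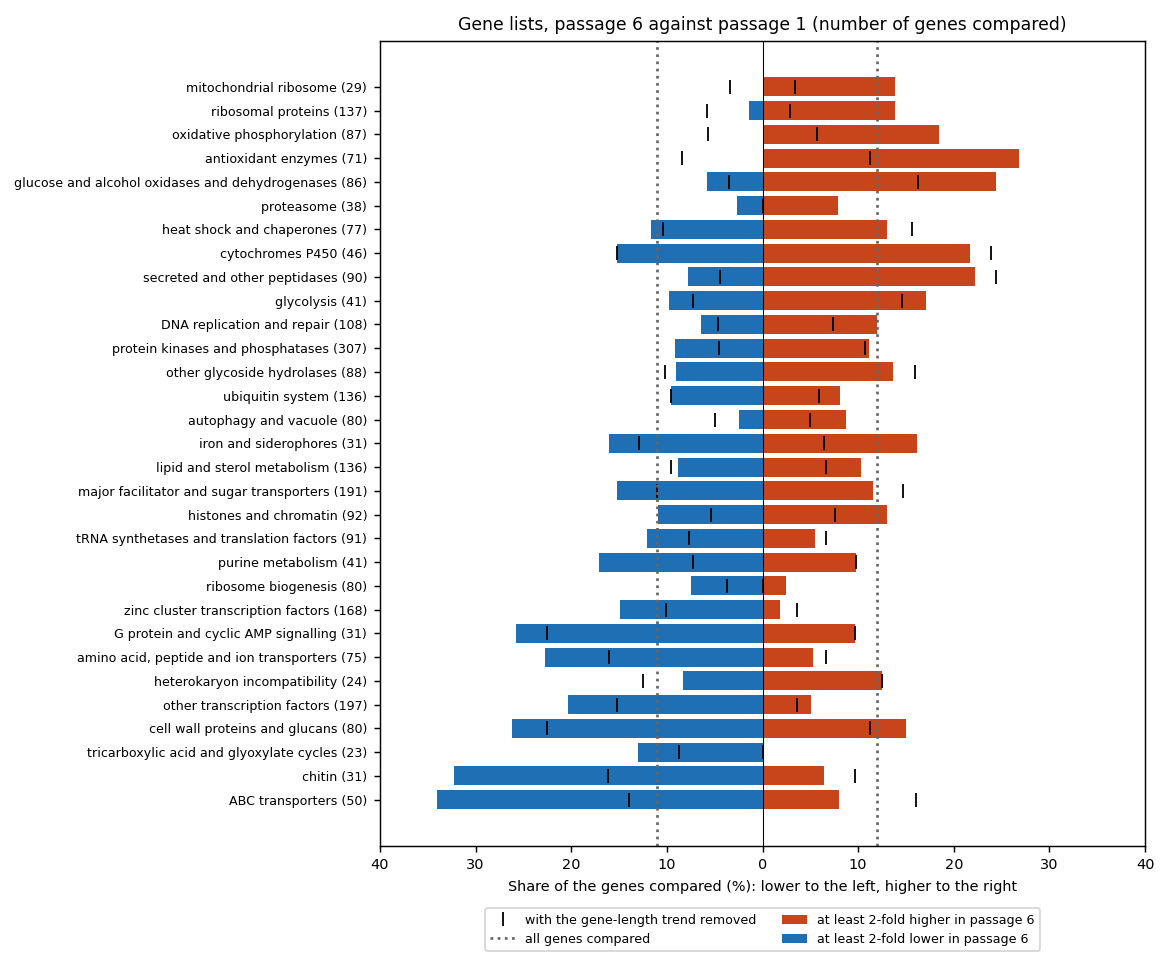
Share of each gene list (y axis, lists of at least 20 genes compared) at least 2-fold higher (red, right) or lower (blue, left) in passage 6, in percent on the x axis. Dotted lines mark all genes (12.0% higher, 11.0% lower) and black ticks the shares with the length trend removed. Antioxidant enzymes reach 26.8% higher, and ABC transporters 34.0% lower.

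Fruiting body and mating genes were lower at 4 (26.7%, against 11.0% of all genes) and higher at 1 (6.67%, against 12.0%) of 15 (median -0.63). Without the length trend 3 were lower and 2 higher (median -0.39). VeA (CCM_04531), a velvet regulator of development, had 86.1, 41.1, 34.6, 32.1, 32.5 and 33.7 FPKM (-1.60, interval -1.70 to -1.495). PakA (CCM_05107), a kinase of cell polarity, had 76.6 FPKM in passage 1 and 35.7 to 40.1 FPKM afterwards (-1.29, interval -1.39 to -1.19). Without the length trend PakA was at -0.86 and so no longer 2-fold apart. The mating-type gene MAT1-1-1 (CCM_06523) had 6.66, 4.01, 5.07, 2.32, 3.38 and 2.63 FPKM, or 89 counts against 49 (-1.56, interval -2.12 to -1.07). FIG1 (CCM_01276), a membrane protein of mating in yeast, had 13.4 FPKM in passage 1 and 43.4 to 62.0 FPKM later (1.44, interval 1.14 to 1.77). For conidiation, the regulator AbaA (CCM_05444) had 231.7, 52.4, 31.1, 81.0, 39.2 and 94.0 FPKM (-1.54, interval -1.60 to -1.49), and Con-13 (CCM_00714) had 53.4, 5.41, 4.64, 12.3, 2.99 and 14.7 FPKM (-2.09, interval -2.38 to -1.83). For both, passage 6 was below passage 1 but above passages 2 to 5.

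Of the 4 genes of the cordycepin cluster, cns2 was at least 2-fold higher. The synthesis gene cns2 (CCM_04437) had 214.8, 338.0, 163.1, 278.0, 131.5 and 551.2 FPKM (1.12, interval 1.05 to 1.19). Its level was highest in passage 6, and the ratio was 0.91 without the length trend. Its partner cns1 (CCM_04436) had 237.9 FPKM in passage 1 and 250.5 FPKM in passage 6, a TMM-scaled ratio of -0.17 (interval -0.22 to -0.12). The ratios of cns3 (CCM_04438) and cns4 (CCM_04439) were 0.17 and -0.68. In purine metabolism, which supplies adenosine, 4 of 41 genes were higher (9.76%, against 12.0% of all genes) and 7 lower (17.1%, against 11.0%). That excess of lower genes was gone without the length trend, at 4 higher and 3 lower, and with FPKM as deposited, at 4 and 2. The xanthine and uracil permease CCM_08692 had 82.4, 30.7, 30.7, 15.6, 13.7 and 12.96 FPKM (-2.91, interval -3.09 to -2.73), and adenosine deaminase CCM_02911, which turns adenosine into inosine, had 52.4 FPKM in passage 1 and 19.6 to 23.9 FPKM later (-1.37, interval -1.52 to -1.23).

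By amount rather than ratio, alcohol dehydrogenase and heat shock proteins gained most. Alcohol dehydrogenase 1 (CCM_02484), which forms ethanol from acetaldehyde, had 3261, 7173, 6584, 7533, 8570 and 13877 FPKM. In TMM-scaled CPM it went from 3978 to 14303, the largest gain of any gene compared (log2 1.85, interval 1.83 to 1.86). The protein disaggregase HSP98 (CCM_07508) had 1659 FPKM in passage 1 and 4314 FPKM in passage 6 (1.14, interval 1.12 to 1.15), and HSP90 (CCM_07839), a chaperone of signalling proteins, had 2130 and 5136 FPKM (1.03, interval 1.01 to 1.04). The abundant HSP70 CCM_04804 and the 30 kDa heat shock protein CCM_06821 gained less than 2-fold (0.30 and 0.94). Passages 2 to 5 were close to passage 6 for HSP98, at 3887 to 4725 FPKM. Of 77 heat shock and chaperone genes, 10 were higher and 9 (11.7%) lower, shares close to the 12.0% and 11.0% of all genes. The counts were 12 and 8 without the length trend, and 18 and 5 with FPKM as deposited. Among the higher ones was the mitochondrial GrpE cochaperone (CCM_00863), with 79.2, 235.4, 256.6, 272.9, 281.1 and 418.8 FPKM (2.16, interval 2.03 to 2.29).

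The largest losses, besides CCM_05638 and ChiA1, were those of an ion pump, a translation factor and a lipid enzyme. The plasma membrane ATPase CCM_08873, the proton pump that powers nutrient uptake, had 2134, 670.2, 978.3, 969.1, 769.1 and 607.9 FPKM (-2.06, interval -2.08 to -2.03). Elongation factor 1-alpha (CCM_00809), which brings aminoacyl-tRNA to the ribosome, had a ratio of -0.54, and acyl-CoA desaturase (CCM_02537), which makes unsaturated fatty acids, one of -0.86. In energy metabolism the mitochondrial alternative oxidase (TCONS_00011552), a terminal oxidase that bypasses the cytochrome chain, had 249.1, 867.4, 1235, 1247, 1546 and 1273 FPKM (2.11, interval 2.07 to 2.15). Pyruvate kinase (CCM_06062), the last step of glycolysis, had 1132, 832.0, 825.2, 701.0, 729.5 and 526.9 FPKM (-1.35, interval -1.38 to -1.31). Of 23 genes of the tricarboxylic acid and glyoxylate cycles 0 were higher, against 12.0% of all genes, and 3 lower (median -0.46). The share lower was near the 11.0% of all genes. Without the length trend 0 were higher and 2 lower (median -0.48). With FPKM as deposited 0 were higher and 0 lower. Malate synthase (CCM_03131) and isocitrate lyase (CCM_05551), the enzymes of the glyoxylate bypass, were at -1.15 and -1.05. Neither was 2-fold apart without the length trend (-0.88 and -0.95) or with FPKM (-0.89 and -0.80).

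**Figure D4:**
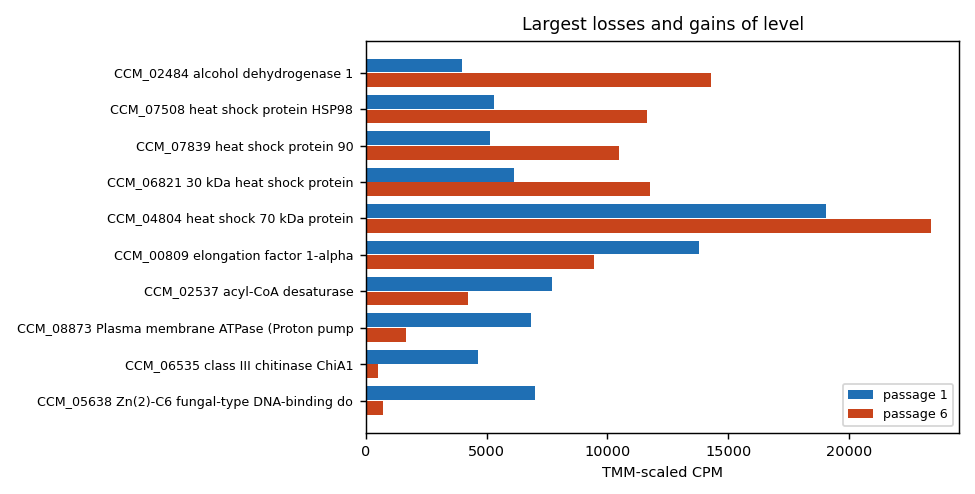
TMM-scaled CPM (x axis) in passage 1 (blue) and passage 6 (red) of the 5 genes with the largest losses and the 5 with the largest gains of level. Alcohol dehydrogenase 1 goes from 3978 to 14303 CPM, and the zinc cluster gene CCM_05638 from 7001 to 709.3 CPM.

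Ribosomal protein genes and oxidative phosphorylation genes were above the median gene, but not once length was allowed for. Of 137 ribosomal protein genes 19 (13.9%, near the 12.0% of all genes) were higher and 2 (1.46%, against 11.0%) lower, with a median of 0.46. After removal of the length trend their median was 0.01, with 4 higher and 8 lower. Of 87 oxidative phosphorylation genes 16 (18.4%) were higher and 0 lower (median 0.45), and 5 and 5 with the trend removed (median -0.01). Of 29 genes of the mitochondrial ribosome 4 (13.8%) were higher and 0 lower (median 0.52), and 1 and 1 with the trend removed (median 0.02). The median gene lengths of these lists were 0.612, 0.597 and 0.741 kb.

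Some genes set passage 6 apart from all 5 other libraries. In TMM-scaled CPM, 58 genes (0.684%) were at least 2-fold above each of passages 1 to 5 and 23 (0.271%) at least 2-fold below each. Those named here were chosen after their values were seen. Glucose oxidase lay 23.5-fold above the next library. The ankyrin repeat gene CCM_06435, with a repeat that binds other proteins, had 17.7, 22.2, 7.35, 37.4, 24.7 and 131.5 FPKM. A monocarboxylate permease (CCM_03669), a carrier of small organic acids, had 0.51 to 2.80 FPKM in passages 1 to 5 and 13.5 FPKM in passage 6. The family 25 glycoside hydrolase CCM_07342, of a family named for lysozymes, had 84.6, 146.7, 16.8, 77.9, 50.8 and 442.7 FPKM. Of those below all others, 3 are given. The Asp F2-like allergen CCM_05262, whose Aspergillus relative is a zinc-responsive secreted protein, had 129.3, 215.5, 172.2, 321.0, 216.3 and 15.1 FPKM, 10.1-fold below the next library. The zinc/iron permease CCM_01341 had 193.5 to 313.1 FPKM in passages 1 to 5 and 78.4 FPKM in passage 6. A CobW domain gene (CCM_07948), of a family of metal-binding GTPases, had 145.6 to 342.8 FPKM and then 49.4 FPKM.

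Few genes were read in one library and not in the other. Of the genes compared, 16 had no count in passage 1, 5 of them with at least 10 counts in passage 6. An enterotoxin A chain gene (CCM_08244), named after the bacterial toxin, had 0 counts and 96 counts, at least 19.4-fold higher against a floor of 3 counts in passage 1. A citrinin-type oxidoreductase gene (CCM_08019) had 0 and 65 counts, at least 13.1-fold higher. Just 1 gene, TCONS_00001576, had no count in passage 6, with 7 in passage 1. These genes were chosen after their values were seen.

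Genes next to each other in locus order were in places lower or higher together. There were 49 runs of at least 3 neighbouring genes, all at least 2-fold apart in one direction, 26 higher and 23 lower, with 157 genes in all. Neighbours were taken among the reference genes compared, so genes below the FPKM limit or outside the reference annotation were skipped. The longest held 5 genes and was lower. It begins with the transporter CCM_08259 described above. It goes on with a transcription factor (CCM_08260, 39.0 to 9.78 FPKM), DmbS (CCM_08261, 6.26 to 3.02 FPKM), the cytochrome P450 CCM_08263 (8.74 to 1.20 FPKM) and the C6 zinc finger gene CCM_08264 (7.70 to 0.64 FPKM). All 5 were highest in passage 1. DmbS was at -1.29, but at -0.40 without the length trend, which breaks the run of 5. Another run joined the family 2 glycosyl transferase CCM_00949, with 1084 FPKM in passage 1 and 129.6 FPKM in passage 6, to a glucan 1,3-beta-glucosidase (CCM_00948, 736.6 and 245.9 FPKM) and a fasciclin-like gene (CCM_00947, 148.1 and 51.4 FPKM). The pH regulator PacC (CCM_01847), with 417.0 FPKM in passage 1 and 131.1 FPKM in passage 6, lay in a run of 4 that were lower. A run of 4 that were higher, chosen after its values were seen, holds the glutathione S-transferase CCM_09200. Its neighbours were an aspartokinase (CCM_09199) with 22.2, 85.5, 32.8, 17.4, 20.8 and 134.4 FPKM and an FAD-dependent oxidoreductase (CCM_09198) with 99.2, 295.3, 98.6, 64.2, 78.5 and 385.2 FPKM. All 3 were highest in passage 6 and next highest in passage 2. At a 4-fold limit 2 runs were left.

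Read alleles differed between the ends of the series mostly in 3 parts of the genome. Of 50286 variant sites with at least 20 reads in both libraries, 2051 (4.08%) had alternative allele shares at least 0.5 apart. Of these, 1887 (92.0%) lay in 50 kb windows on 3 scaffolds, named as in the deposited files, which give no build. They spanned 50 to 600 kb of NW_006271973.1, 1150 to 1650 kb of NW_006271974.1 and, with gaps, 1300 to 2650 kb of NW_006271975.1. A window was counted where at least 5 sites, and at least 10% of its sites, had 1 allele in passage 1 (under 10% or over 90% alternative reads) and both in passage 6. Over the genome 2056 sites were of that kind, and 138 were the reverse, with both alleles in passage 1 and 1 in passage 6. A further 511 sites, 364 of them in the stretches, had 1 allele in each library but a different one. Because this rule fixes passages 1 and 6, their shares at these sites are a description. Passages 2 to 5 were not used by it.

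At the 584 such sites on NW_006271973.1, the allele not read in passage 1 took a median of 0, 26.4, 6.77, 60.7, 37.4 and 68.8% of reads in passages 1 to 6. At the 561 sites on NW_006271974.1 the medians were 0, 27.8, 7.17, 60.8, 38.1 and 70.3%. At the 773 sites on NW_006271975.1 they were 0, 26.0, 7.55, 57.9, 35.3 and 69.0%. The 3 scaffolds gave nearly the same share within each library. With the sites of exchanged alleles included, the passage 6 medians were 73.8, 72.8 and 74.0%. After passage 1 it was lowest in passage 3 and highest in passages 4 and 6, so it did not follow the order of the labelled passages. The share also depended on which allele is the reference: in passage 6 the median was 63.0% at 1125 sites where passage 1 read the reference base and 77.0% at 793 where it read the alternative.

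Expression was set side by side for genes with an exonic site of this kind in a stretch and genes without one. Of 294 genes with an exonic site of this kind, 81 (27.6%) differed by at least 2-fold, with 32 higher and 49 lower. Of 6021 genes with exonic sites of at least 20 reads, none of them 0.5 apart and none of this kind in a stretch, 1191 (19.8%) were, 493 higher and 698 lower. Over all 8483 genes compared the share was 23.0%, between these 2 values. No test was made of these differences. Several of the genes described above were among the 294. In ChiA1 the allele not read in passage 1 had a median of 0.615, 54.9, 20.1, 76.7, 61.7 and 70.3% of reads over 7 sites in passages 1 to 6. In the ABC transporter CCM_08739 it was 0, 13.6, 0, 48.3, 33.7 and 75.2% over 14 sites, and in the permease CCM_08692 0, 0, 0, 35.1, 17.6 and 46.2% over 13 sites. In passage 3 these genes had 111.8, 25.4 and 30.7 FPKM. The ankyrin gene CCM_06435, higher in passage 6, had 89.2% at its only such site. The mannosidase MsdS (CCM_08733), which trims sugar chains of glycoproteins, had 11.9, 24.7, 21.8, 32.8, 24.5 and 52.4 FPKM (1.90, interval 1.67 to 2.14), with 84.2% at 2 sites in passage 6.

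Some differing sites alter a reading frame in the authors' annotation. There were 10 stop or frameshift sites at least 0.5 apart, 5 of them in the stretches, beside 1244 synonymous and 354 nonsynonymous substitutions. In ChiA1 a frameshift deletion at position 451415 of NW_006271973.1 was in 96.8% of 723 reads in passage 1 (exact binomial interval 95.3 to 98.0%) and 8.46% of 662 reads in passage 6 (6.45 to 10.8%). A further deletion call 3 bases on gave nearly the same shares. In RlmA a frameshift deletion had 100% of 123 reads in passage 1 and 21.3% of 47 reads in passage 6 (10.7 to 35.7%). A frameshift insertion in a mitochondrial DNA replication gene (CCM_08886) had 97.8% of 496 reads and 24.3% of 1359 reads (22.0 to 26.7%). Outside the stretches, a stop gain in a short-chain dehydrogenase gene (CCM_01528) was in all 44 reads of passage 1 and in 0 of 134 reads of passage 6, and was also at 100% in passages 3, 4 and 5 and at 0% in passage 2. Intervals cover counting error only.

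Splice junctions were compared by their reads. Of 15677 junctions with at least 10 reads in the libraries together, 5355 (34.2%) were at least 2-fold apart relative to all junction reads of their library, 2808 higher and 2547 lower. This count takes unlisted junctions as without reads, which places them 2-fold apart by construction. Its read limit also differs from the limit on genes, so the share is not set against that of genes. The table lists a junction in a library from 5 reads upward, and several are unlisted in one library while many reads carry them in another, so an unlisted junction is not read here as absent. Among 14275 junctions listed in both libraries, 3953 (27.7%) were 2-fold apart, 1656 higher and 2297 lower. Relative to the ratio of the gene they lie in, 1193 of 12871 (9.27%) were, 540 higher and 653 lower. Known junctions took 77.1% of junction reads in passage 1 and 76.1% in passage 6, and junctions outside annotated genes 4.81 and 6.06%. The class written ALS, with 167 junctions listed in both, had 34 higher and 11 lower, and was the only class with more higher than lower. AFS, with 462, had 39 higher and 97 lower, beside 1656 and 2297 of all 14275. Relative to the host gene, ALS had 24 higher and 14 lower of 155. AFS then had 26 higher and 50 lower of 454, beside 540 and 653 of all 12871. The files do not explain the words ALS and AFS.

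Of the 5 junctions furthest above their gene and listed in both libraries, 4 lay in the stretch on NW_006271975.1. They came from the genes CCM_08659 and CCM_08843 alone. In the gene for a VPS46-like vacuolar sorting protein (CCM_08659), of the machinery that buds membranes, the known junction at 1380921 to 1381002 had 12, 380, 106, 795, 447 and 911 reads in passages 1 to 6. Scaled to 1000000 junction reads per library that was 2.11, 39.7, 13.9, 87.7, 52.6 and 98.3. The gene itself had a log2 ratio of -0.47, and the junction one of 5.96 relative to it. In the LysM gene CCM_08843, whose domain binds chitin, the known junction at 1946617 to 1946666 had 7, 180, 21, 370, 233 and 1007 reads. In its neighbour, chitinase 16 (CCM_08842), the junction at 1944580 to 1944637 had 44, 127, 85 and 400 reads in passages 2, 4, 5 and 6 and was unlisted in passages 1 and 3. Its junction at 1943803 to 1943859 was likewise unlisted in passages 1 and 3, with 27, 86, 47 and 200 reads in the others. Not all junctions of that gene moved so: the one at 1939768 to 1939839 had 1497 reads in passage 1 and 1202 in passage 6. The VPS46-like and LysM junctions and the allele share above were lower in passages 1 and 3 than in the other passages, and highest in passage 6. The chitinase junction at 1944580 to 1944637 was also highest in passage 6, but its level in passages 1 and 3 is not known. The chitinase and its neighbours were singled out after their values were seen.

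**Figure D5:**
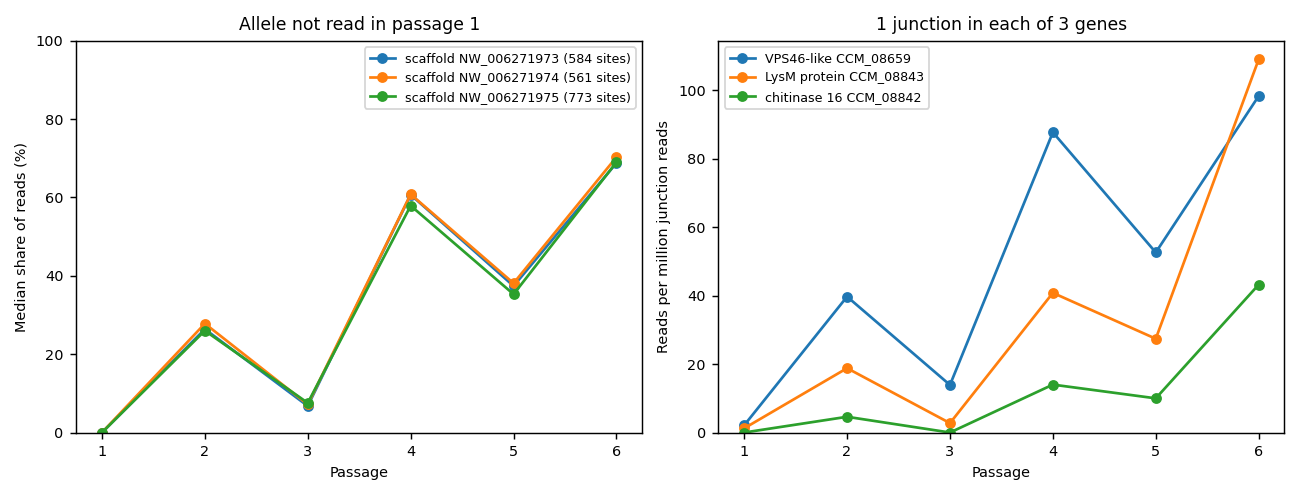
Left, median share of reads (%, y axis) carrying the allele not read in passage 1, by passage, at the sites of 3 scaffolds that had 1 allele in passage 1 and both in passage 6, a rule that fixes those passages. Right, reads of 1 junction, scaled to 1000000 junction reads per library, in each of 3 genes on NW_006271975.1. An unlisted junction is drawn at 0, which is not a measured level. The share and the plotted junctions listed in all passages are lower in passages 1 and 3 than in the others. The plotted junctions were picked for high ratios of passage 6 over passage 1. The share reaches 68.8 to 70.3% in passage 6.

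Of the junctions with at least 50 reads in one library, 29 of 631 (4.60%) in the stretches and 124 of 10563 (1.17%) elsewhere were listed in passage 6 and not in passage 1. Listed in passage 1 and not in passage 6 were 5 (0.792%) and 28 (0.265%). Passage 6 had 9266923 junction reads and passage 1 had 5695049, so these limits in unscaled reads favour listing in passage 6. Outside the stretches, the Rab-type small GTPase gene CCM_06707, of a family that directs vesicle traffic, had a junction with 6, 21, 21, 2022, 29 and 1714 reads, high in passages 4 and 6 alone. A junction of the 60S ribosomal protein L30 gene (CCM_04673) was unlisted in passage 1 and had 1071 to 1823 reads in passages 2 to 6. In the gene of the ADP, ATP carrier (CCM_00240), which exchanges nucleotides across the mitochondrial membrane, a junction had 466, 577 and 45 reads in passages 1, 2 and 4 and was unlisted in the others. The 5 junctions furthest below their gene and listed in both included a junction of glyceraldehyde 3-phosphate dehydrogenase (CCM_04549), a glycolytic enzyme. It had 113 reads in passage 1 and 9 to 16 in the others, and lay outside the stretches. The rest of the 5 lay within the spans of the stretches. They were in CCM_08865 and CCM_08676 on NW_006271975.1, CCM_07763 on NW_006271974.1 and CCM_06546 on NW_006271973.1.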

How the data were processed

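Poly(A) RNA of mycelium was sequenced in 6 libraries, 1 per passage, from cDNA of about 200 bp, per the labels' protocols. The submitters' processing notes name edgeR, Cufflinks, TopHat2, Bowtie and FastQC. For versions, strand use and the variant caller the sources used here give nothing, so overlapping, antisense and near-identical genes are uncertain. The authors deposited expected counts, not normalised, and FPKM per gene. Their deposited table for this pair of libraries holds log2 ratios of FPKM, with p-values and FDR from 1 library against 1, of which only the number of genes and their direction were used. They also deposited counts of reads per splice junction and, as other values, reference and alternative reads per variant site and coordinates. The deposited quality score per site was not used, and neither were 56 further columns of per-sample values.

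Counts were rounded and scaled by TMM (edgeR 4.0.16, R 4.3.3) with factors from 8758 expressed genes. Log2 CPM had a prior count of 1, over genes whose FPKM averaged 1 or more, and called means at least 2-fold. Intervals are exact binomial at 95%. Ratios were recovered in counts simulated from the mean levels, with counting error alone and few genes changed. That checks the computation, not whether the scaling holds for these libraries, whose ratios moved with gene length. All 9651 reference locus tags matched a RefSeq table of assembly CmilitarisCM01_v01, used for gene order only. Length was inferred from counts and FPKM, and its trend removed by loess. Junctions were merged by intron.

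The comparison, the lists and the rules were chosen with earlier results of these data known. Named are the 20 highest and 20 lowest ratios of genes that have a product name and reach 10 FPKM in either passage, up to 4 genes a list by size of ratio, the 5 largest gains and losses of CPM, the cordycepin cluster and 5 developmental loci, 6 of the longest runs (1 of 5 genes, then by locus order among 8 of 4) and the 5 highest and lowest junctions relative to their gene; other genes are said to be later choices. RlmA, MsdS, CCM_08886, CCM_01528, CCM_08659, CCM_08843 and the run at CCM_09200 were such choices. Lists were made from product names. No p-value was computed.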

Additional observations from a re-analysis of the deposited data

Results flagged for a closer look

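The variant table lies outside the expression comparison and gave a signal of its own. Between passages 6 and 1, 2051 sites had alternative allele shares at least 0.5 apart, of 50286 with at least 20 reads in both libraries. No passage has a replicate library, so groups could not be searched for a sample far from the others.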

How the results depend on the processing

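With FPKM as deposited, 484 genes were lower (pseudocount 1), and 1553 were higher and 557 lower (pseudocount 0.1). Requiring the counting interval to lie beyond 2-fold left 1042 genes, 412 of them higher. Relative to the host gene, 2173 junctions were 2-fold apart, unlisted ones included. At 4-fold there were 2 runs. At least 50 reads in both libraries left 1074 variant sites, or 3.65% of 29403. With the length trend removed, the medians relative to all genes turned to -0.015 for ribosomal proteins, -0.005 for the mitochondrial ribosome, -0.027 for oxidative phosphorylation and 0.064 for heterokaryon incompatibility, whose value was -0.325 before. The cause of these moves was not tested beyond the construction of each alternative. Under the DESeq2 size factors, TMM over passages 1 and 6 alone, TMM over all genes, quantile scaling, other prior counts and other filters on low values, the counts of higher and lower genes stayed within 1.5 times. TMM over all genes and junctions listed in both libraries were taken up after the data were seen. No named gene 2-fold apart changed sign under another scaling. No paired analysis was possible because each passage has 1 library, and for the same reason none could be left out. Depth limits the genes with few counts, such as glucose oxidase with 3 counts in passage 1.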
